A study of Mus musculus with 4 samples.

Results

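The integrin and laminin genes of the mouse were followed through the stromal cell types of the lymph node, with and without conditional deletion of Notch2. The genes were taken by symbol alone: Itga followed by letters or digits, Itgb followed by digits, and Lama, Lamb or Lamc followed by 1 digit. This gave 37 of the 32285 genes counted, made up of 18 integrin alpha chain genes, 8 integrin beta chain genes and 11 laminin chain genes. No expression value entered the choice, and none of the 37 genes was used to gate cells.

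Integrins are cell surface receptors made of an alpha and a beta chain, and the pairing decides what is bound: collagen, laminin, proteins with an Arg-Gly-Asp sequence such as fibronectin and vitronectin, or counter-receptors on other cells. Laminins are secreted trimers of an alpha, a beta and a gamma chain that build basement membranes. In the lymph node, fibroblastic reticular cells wrap a conduit network whose outer layer is such a basement membrane, and mural cells and Schwann cells lie on basement membranes of their own. Ccl19-Cre is a driver for reticular cells, which make the chemokine CCL19.

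Droplet 3′-end single-cell RNA sequencing covered 4 libraries, each from the pooled peripheral lymph nodes of several female C57BL/6 mice aged 12 weeks, after depletion of CD45+ cells and a sort for live CD45- CD31- cells. Notch2 cKO 1 came from 6 mice with Ccl19-Cre, Notch2 fl/fl and the reporter R26R-EYFP, and Notch2 cKO 2 from 3 Ccl19-Cre x Notch2 fl/fl mice. Control 1 came from 6 mice with Ccl19-Cre and R26R-EYFP but no floxed Notch2, which were not littermates of Notch2 cKO 1, and control 2 from 3 Notch2 fl/fl littermates of Notch2 cKO 2, although the title of that library names Ccl19-Cre. The first library of each genotype belonged to batch 1 and the second to batch 2. The library was the replicate (n = 2 per genotype), so p-values measured the spread between pools and not between mice.

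Total counts ran from 21533049 to 119002408 unique molecular identifiers (UMIs) per library, and the median kept cell held 2960 UMIs in Notch2 cKO 1, 7604.5 in Notch2 cKO 2, 2123 in control 1 and 6169 in control 2. Batch 2 was thus the deeper one, and only 21 to 57 cell barcodes were shared between any 2 libraries. Cells were gated on marker genes into 9 stromal classes. Among markers that set no gate, Cd34 was highest in the adventitial-like gate and Notch3 and Acta2 in the mural gates, and in batch 2 S100b was highest in the Schwann-like gate. The pericyte marker Cspg4 was also highest in the Schwann-like gate in batch 2, at 129 and 120 CPM in Notch2 cKO 2 and control 2. Pericyte-like cells of these libraries held 91.6 and 49.1 CPM. The 20 pericyte-like cells of control 1 carried 11008 CPM of the reticular gene Ccl21a, against 974 CPM in those of control 2, and leaving them out kept every class call on the genes described here and added up to 2 calls in a class. The marginal reticular-like gate was highest in Enpp2 in all libraries but not in Madcam1 in the controls, and the T-zone reticular-like gate was not highest in Ch25h or Cxcl12. The gate on Inmt, Car3, Cyp2f2 and Stc1 was not highest in Mgp, was highest in Fmo2 in Notch2 cKO 1 only, and is named by its gate. Fibroblast-like cells in no further gate are called other fibroblast-like cells. Immunoglobulin genes were among those furthest above the median class in 3 of the fibroblast-like classes. Ighe was 37.5-fold above it in marginal reticular-like cells, Iglc1 118-fold in Inmt Car3-gated cells and Igkc 27.8-fold in other fibroblast-like cells. The source of these transcripts was not tested. Notch2 itself had 15.3 and 37.8 CPM (UMIs scaled to a fixed total per sum) in T-zone cells of Notch2 cKO 1 and 2, against 42.4 and 57.0 CPM in those of control 1 and 2 (log2 fold change -1.06, SE 0.22, adjusted p = 0.0269). The counts come from transcript 3′ ends, and the sources used here do not name the floxed exons, so this level is no check on the deletion itself.

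Levels are given as CPM of the UMIs summed over the cells of a class in a library, and they compare 1 gene between cells, not genes with each other, since genes differ in how well their 3′ ends are captured. In such sums, fewer expressing cells and less RNA per cell cannot be told apart. Class means average the libraries of both genotypes that held at least 20 cells of the class. Those of smooth muscle-like and Schwann-like cells thus come from batch 2 alone, and those of pericyte-like cells lack Notch2 cKO 1. Means of the other classes tested cover both batches, so a ranking of means can also reflect batch. Each class was set against the mean of the other 7 stromal classes on the log2 scale with edgeR's quasi-likelihood test, and adjusted p-values (Benjamini-Hochberg over all 14017 genes tested) under 0.05 were called. Of the 37 genes, 31 had enough counts to be tested there. Itgad, Itgae, Itgal, Itgam, Itgax and Itgb2 did not. Statements on all or the remaining classes cover the 8 classes tested, without the follicular dendritic-like gate, which held too few cells.

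Integrin and laminin genes were called in both directions in every stromal class tested, and some were called in several classes. T-zone cells were higher for 11 and lower for 8 of the 31 genes, where 24% and 10.4% of all genes tested were called in those directions and 34.4% in either. Marginal reticular-like cells were higher for 5 and lower for 8, with 14.5% and 6.52% of all genes (21% in either). Adventitial-like cells were higher for 14 and lower for 7, with 19.9% and 16.5% of all genes (36.4% in either). The Inmt Car3-gated cells were higher for 7 and lower for 9, with 19% and 8.13% of all genes (27.1% in either). Other fibroblast-like cells were higher for 10 and lower for 2, with 17.6% and 3.78% of all genes (21.4% in either). Pericyte-like cells were higher for 8 and lower for 9, with 15.8% and 12.6% of all genes (28.4% in either). Smooth muscle-like cells were higher for 14 and lower for 4, with 12.7% and 9.37% of all genes (22.1% in either). Schwann-like cells were higher for 11 and lower for 5, with 9.67% and 11.3% of all genes (21% in either). The median log2 difference of the 31 genes was 0.56 in smooth muscle-like cells and 0.28 in Schwann-like cells, where the medians of all genes were -0.00006 and -0.21, and between -0.37 and 0.16 in the other 6 classes.

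**Figure D1:**
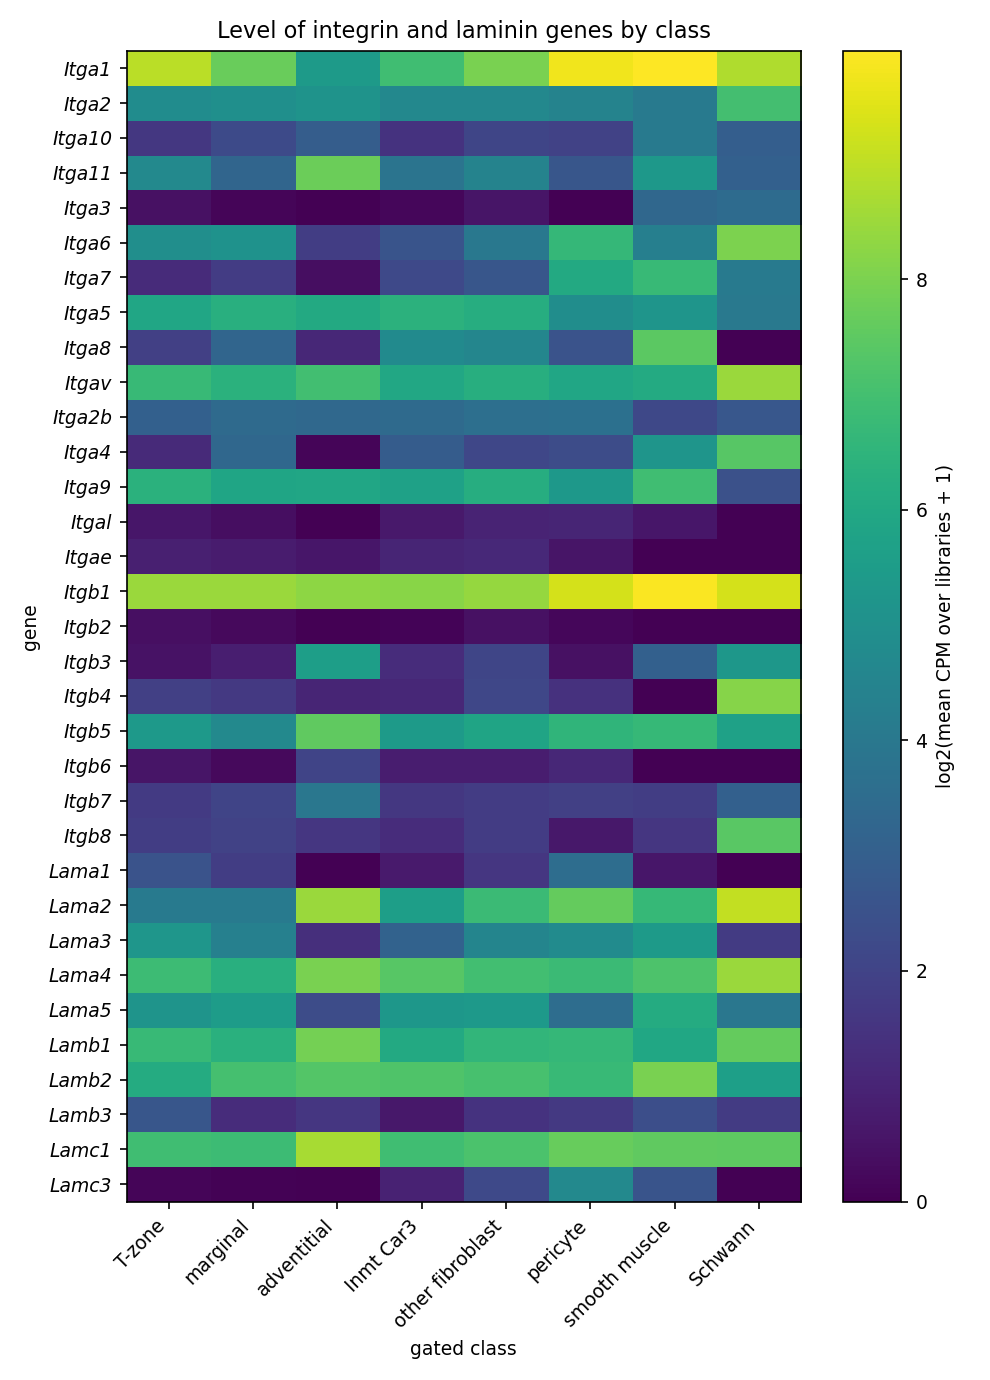
Mean level of 33 integrin and laminin genes in the 8 stromal classes tested, as log2 of the mean CPM over libraries plus 1, ordered by role. Adventitial-like cells stand out for Itga11 at 214 CPM, Schwann-like cells for Itgb4 at 290 CPM and smooth muscle-like cells for Itga8 at 176 CPM; the pericyte-like means of Lama1 and Lamc3 include the 20 cells of control 1, with 1 or 2 UMIs of each gene.

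Among the collagen receptor chains, Itga1 separated mural and T-zone cells from the other fibroblast-like cells. It averaged 1010 ± 205 CPM in smooth muscle-like cells (SD, n = 2 libraries), 876 ± 123 in pericyte-like cells (n = 3) and 495 ± 87.6 in T-zone cells (n = 4). The levels of the first 2 classes overlapped between libraries, and Schwann-like cells at 442 ± 116 CPM overlapped with T-zone cells. Other fibroblast-like cells followed at 250 ± 47.8, marginal reticular-like cells at 208 ± 32.0, Inmt Car3-gated cells at 122 ± 26.0 and adventitial-like cells at 42.9 ± 24.1 CPM. The differences from the mean of the other classes were 1.89 in smooth muscle-like, 1.52 in pericyte-like and 1.11 in T-zone cells and -1.18 in Inmt Car3-gated cells (log2). Itga11, a receptor chain for fibrillar collagens, was highest where Itga1 was lowest: it averaged 214 ± 70.6 CPM in adventitial-like cells and at most 38.8 CPM in any other class (log2 difference 3.83, SE 0.13, adjusted p = 2.0065e-19). It was lower in marginal reticular-like, pericyte-like and Schwann-like cells, at 8.64, 5.44 and 7.44 CPM. Without control 2 the marginal reticular-like and Schwann-like calls were lost (adjusted p = 0.183 and 0.295), and the Schwann-like call was also lost without Notch2 cKO 2, without control 1, with library sizes alone and with DESeq2 size factors. Itga2 averaged 126 ± 18.7 CPM in Schwann-like cells and 15.9 to 34.0 CPM in the rest. Itga10 stayed at or below 16.2 CPM in every class, with that value in smooth muscle-like cells.

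The laminin receptor chains marked mural and Schwann-like cells. Itga7, known as the laminin receptor chain of muscle, averaged 106 ± 13.9 CPM in smooth muscle-like cells and 66.0 ± 34.9 in pericyte-like cells, and 15.9 CPM or less elsewhere (log2 differences 4.24 and 3.87). It was lower in T-zone and adventitial-like cells, at 1.37 and 0.299 CPM, and the T-zone call was lost without Notch2 cKO 1 (log2 difference -1.37, against -2.05). Itga6 averaged 255 ± 132 CPM in Schwann-like cells and 98.7 ± 46.2 in pericyte-like cells (log2 difference 2.28). T-zone and marginal reticular-like cells followed at 29.9 ± 7.36 and 32.8 ± 20.0 CPM, whereas Inmt Car3-gated cells held 5.08 and adventitial-like cells 2.51 CPM. Its mean in marginal reticular-like cells lay below the mean CPM of the other classes, 60.7, although the fitted log2 difference was 0.86. That contrast averages classes on the log scale, where the high Schwann-like level weighs less. Itga3 reached 10.3 CPM in Schwann-like and 9.18 CPM in smooth muscle-like cells, on 4 and 11 UMIs, and was under 0.5 CPM in all other classes.

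Among the chains that read Arg-Gly-Asp ligands, Itga8 was the most uneven. It averaged 176 ± 43.2 CPM in smooth muscle-like cells (log2 difference 5.65), 26.3 ± 13.4 in Inmt Car3-gated and 23.0 ± 10.9 in other fibroblast-like cells, and no more than 8.43 CPM in the remaining classes. In Schwann-like cells no UMI was counted in either library, and a limit of 3 counts corresponds to 16.9 CPM in Notch2 cKO 2 and 13.9 CPM in control 2. Itga5, the fibronectin receptor chain, was higher in Inmt Car3-gated, marginal reticular-like and other fibroblast-like cells by 1.31, 1.04 and 0.89 (log2), and lower in Schwann-like, smooth muscle-like and pericyte-like cells, with log2 differences of -2.72, -1.10 and -0.83. The smooth muscle-like call was lost without control 2 and the pericyte-like call without Notch2 cKO 2. It differed more between batches than between classes of fibroblast-like cells: T-zone cells had 28.5 and 105 CPM in Notch2 cKO 1 and 2, against 21.5 and 83.1 CPM in control 1 and 2. Itgav averaged 355 ± 70.1 CPM in Schwann-like, 123 ± 8.63 in adventitial-like and 104 ± 30.3 in T-zone cells, and was lower in smooth muscle-like, Inmt Car3-gated and pericyte-like cells at 67.7, 61.8 and 58.8 CPM. The smooth muscle-like call was lost without Notch2 cKO 2 (adjusted p = 0.0503). Itga2b, the platelet chain, lay between 3.51 and 11.9 CPM in every class.

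Of the pair of related chains that bind VCAM-1, osteopontin or tenascin, Itga9 was the fibroblast and muscle chain among the stromal classes tested. Itga4 was highest in Schwann-like cells among those classes, and its level in the leukocyte gate is given below. Itga9 averaged 119 ± 34.5 CPM in smooth muscle-like, 81.9 ± 37.5 in T-zone and 73.4 ± 36.8 in other fibroblast-like cells, against 4.63 CPM in Schwann-like cells. Itga4 averaged 165 ± 2.59 CPM in Schwann-like cells and 35.7 ± 26.3 in smooth muscle-like cells, against 1.27 CPM in T-zone and 0.112 CPM in adventitial-like cells. In the pericyte-like contrast Itga9 was lower (log2 difference -1.14), and the difference was -0.24 and not called when control 2 was left out. Without that library the T-zone call of Itga4 was lost too, and the T-zone difference of Itga9 was 2.58, against 1.32 with it.

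Itgb1, the partner of most of these alpha chains, was found in every class, from 291 ± 26.7 CPM in Inmt Car3-gated cells to 959 ± 5.98 CPM in smooth muscle-like cells. Across the 27 sums of a class in a library, Itga1 and Itga7 ran with Itgb1 (Spearman rho 0.80 and 0.69), while Itga8 and Itga11 did not (0.01 and -0.28). These are descriptions over sums that share libraries and depth. Itgb4, the hemidesmosome chain that pairs with the alpha 6 chain, averaged 290 ± 50.5 CPM in Schwann-like cells (log2 difference 7.44, SE 0.45, adjusted p = 3.0249e-13). It had at most 3.35 CPM in the other classes tested. The untested follicular dendritic-like gate held 68.0 CPM of Itgb4 in Notch2 cKO 2 and 110 CPM in control 2, on 3 and 15 UMIs. Itgb8, which forms a receptor for latent TGF-beta with the alpha V chain, averaged 169 ± 23.1 CPM in Schwann-like cells and at most 2.97 CPM elsewhere. Itgb3 averaged 47.9 ± 10.9 CPM in adventitial-like and 38.2 ± 1.63 in Schwann-like cells, and at most 7.44 CPM elsewhere. Itgb5, another partner of the alpha V chain, averaged 186 ± 14.9 CPM in adventitial-like cells, above 101 in smooth muscle-like, 91.2 in pericyte-like and 24.8 CPM in marginal reticular-like cells. Itgb7 reached 14.6 and Itgb6 reached 3.19 CPM in adventitial-like cells and both were lower in the other classes.

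**Figure D2:**
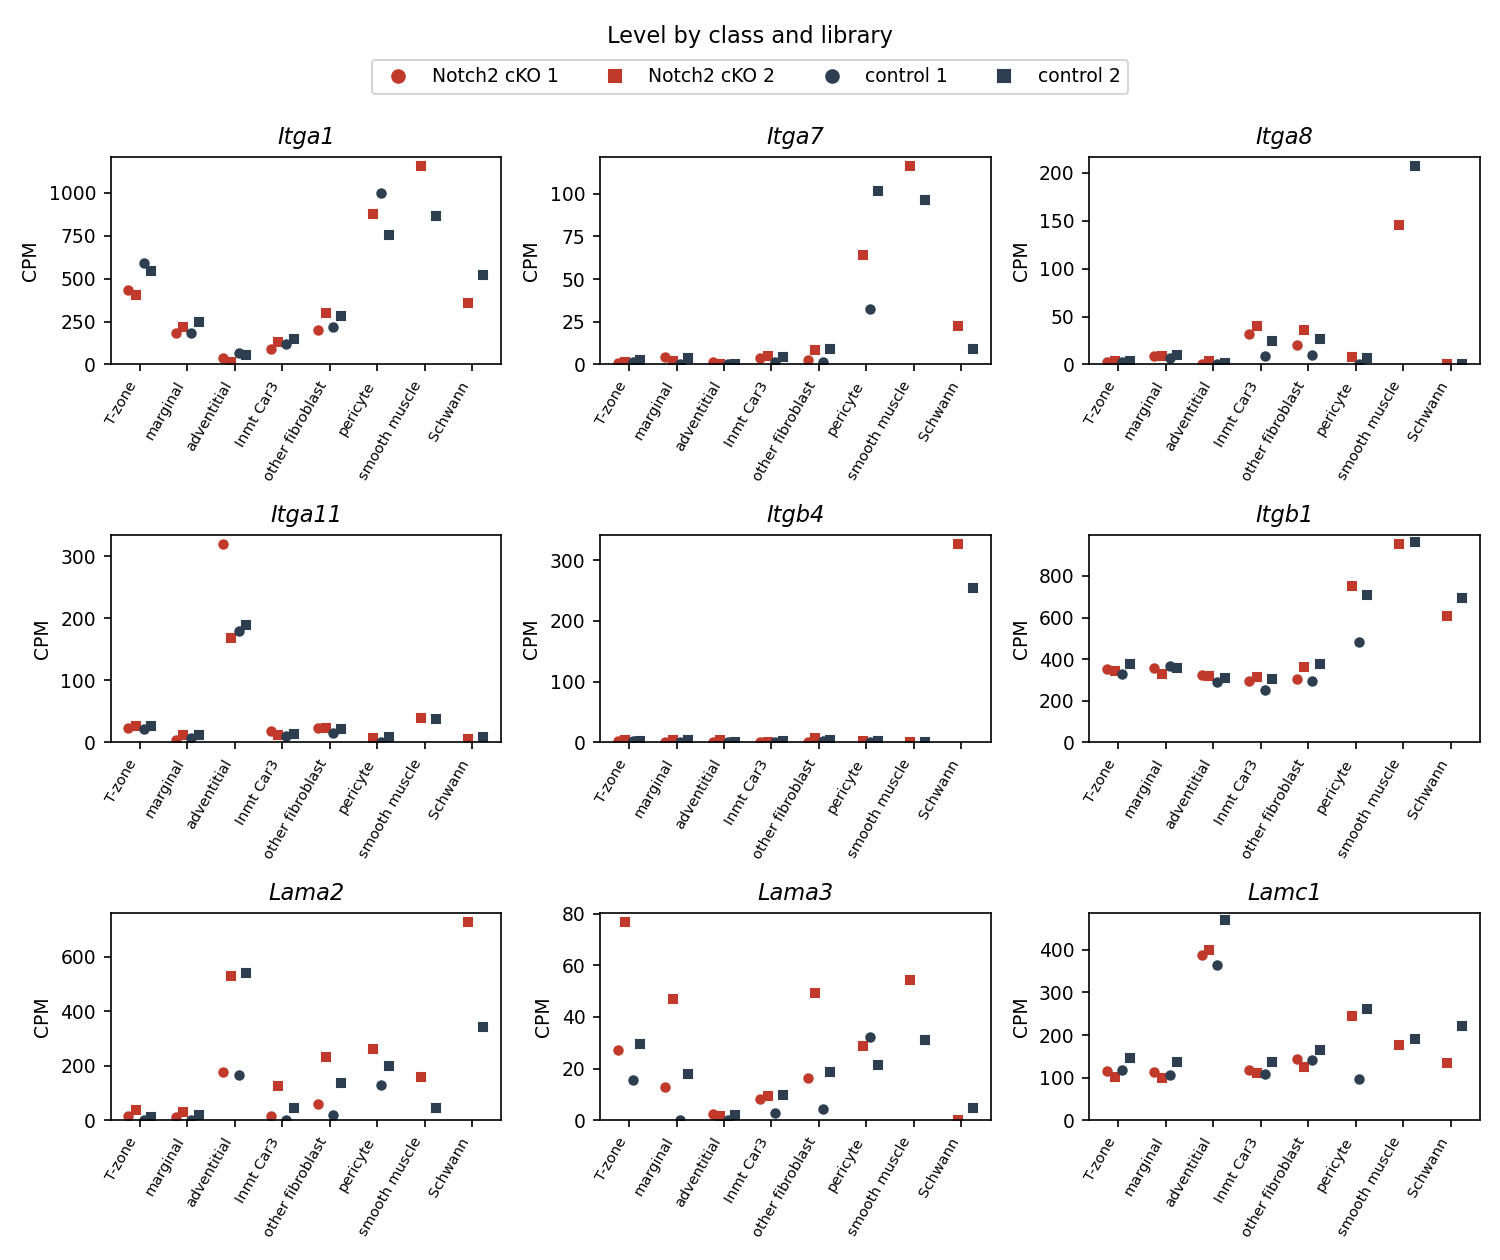
Level in CPM (linear axis) of 9 integrin and laminin genes in each stromal class, with 1 point per library that held at least 20 cells of the class. Itga11 in adventitial-like cells lies at 319 and 169 CPM in Notch2 cKO 1 and 2 and at 179 and 189 CPM in control 1 and 2, above all other classes in every library.

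Laminin alpha chains differed between the classes of fibroblast-like cells. Lama2, the alpha chain of muscle and nerve basement membranes, averaged 534 ± 271 CPM in Schwann-like, 353 ± 209 in adventitial-like, 197 ± 67.3 in pericyte-like and 112 ± 93.0 in other fibroblast-like cells. Its levels ran from 343 to 725 CPM in Schwann-like cells (batch 2 only) and from 167 to 539 CPM in adventitial-like cells (both batches), and these overlapped. T-zone and marginal reticular-like cells held 16.3 ± 15.97 and 15.7 ± 12.8 CPM (log2 differences -2.48 and -2.57). Lama3, the epithelial-type alpha chain, and Lama5 were both higher in T-zone cells, by 2.11 and 0.65. In marginal reticular-like cells both were higher too, by 1.08 and 1.26, and in adventitial-like cells both were lower, at 1.57 and 4.01 CPM. T-zone cells were not highest for Lama5, at 34.7 CPM. Its mean was 69.3 CPM in smooth muscle-like, 44.6 in marginal reticular-like, 40.1 in other fibroblast-like and 37.5 in Inmt Car3-gated cells. Lama3 averaged 22.1 CPM in other fibroblast-like and 19.4 CPM in marginal reticular-like cells. The difference of Lama3 in marginal reticular-like cells was 0.54 and not called without Notch2 cKO 2, and 2.40 without control 2, and in T-zone cells it was 3.44 without control 2. The mean of Lama3 was 42.7 CPM in smooth muscle-like and 37.2 CPM in T-zone cells, and these overlapped between libraries. Lama4 averaged 357 ± 84.0 CPM in Schwann-like and 248 ± 61.2 in adventitial-like cells and 77.4 ± 24.4 in marginal reticular-like cells. Lama1 reached 4.90 ± 4.22 CPM in T-zone cells.

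The beta and gamma chains of the common laminins were found in all classes. Lamb1 averaged 240 ± 33.0 CPM in adventitial-like and 195 ± 33.9 in Schwann-like cells, and 60.6 to 104 CPM elsewhere. Lamb2 averaged 247 ± 3.08 CPM in smooth muscle-like cells, 69.4 ± 11.5 in T-zone cells and 48.8 ± 29.2 in Schwann-like cells. Lamc1 averaged 405 ± 44.7 CPM in adventitial-like cells and 114 to 201 CPM elsewhere. Lamb3, known as a chain of epithelial laminin, averaged 5.39 ± 2.75 CPM in T-zone cells and was higher there (log2 difference 1.61). Smooth muscle-like cells, at 4.20 CPM, overlapped with T-zone cells between libraries. Lamc3 was called higher in pericyte-like cells on 3, 2 and 25 UMIs in Notch2 cKO 2, control 1 and control 2, and that call was lost without control 2. Over the 27 sums, Lama2 and Lama4 ran with Lamc1 (rho 0.62 for both), and Lama3 ran less closely with Lamb3 (0.50).

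The leukocyte integrins had few counts in the stromal classes. In the gate for contaminating leukocytes (30 and 222 cells in Notch2 cKO 1 and 2, 20 and 277 in control 1 and 2), Itgal had 76.7 and 104 CPM in Notch2 cKO 1 and 2, against 99.1 and 121 CPM in control 1 and 2. Itgb7 had 76.7 and 152 against 149 and 99.9 CPM there, and Itgb2 had 15.3 and 87.2 against 24.8 and 99.0 CPM. Lamb3 in this gate had 87.2 CPM in Notch2 cKO 2 and 68.2 CPM in control 2, on 79 and 84 UMIs. Its mean in T-zone cells was 5.39 CPM. Itga4 in the leukocyte gate had 242 CPM in Notch2 cKO 2 and 138 CPM in control 2, on 219 and 170 UMIs. Schwann-like cells of these libraries held 163 and 167 CPM of Itga4, on 29 and 36 UMIs. In all fibroblast-like cells Itgal, Itgae and Itgb2 stayed at or below 1.47 CPM in every library. Itgad, Itgam and Itgax had at most 10 UMIs in the fibroblast-like cells of any library and entered no genotype test.

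Deletion of Notch2 went with 3 laminin changes in T-zone cells and few changes elsewhere. The genotypes were compared with batch as a term in the fit, which left 1 residual degree of freedom. In T-zone cells, the class gated on Ccl19, Ccl21a, Il7, Bst1 and Grem1, 33 of the 37 genes were tested: 2 rose and 1 fell, where 2.41% of all genes tested rose and 2.14% fell, 4.56% in all. The median log2 fold change of the 33 genes was -0.07, and that of all genes was 0.02. None of the genotype calls within a class held when any 1 of the 4 libraries was left out, a fit that had to drop the batch term, nor with all 4 libraries and no batch term. With all 4 libraries and no batch term, no gene of any kind was called in T-zone, all fibroblast-like or other fibroblast-like cells.

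Lama2 lies on chromosome 10 (26980036 to 27619758, minus strand, mm10). It had 14.6 and 38.6 CPM in T-zone cells of Notch2 cKO 1 and 2, on 230 and 2446 UMIs, against 0.772 and 11.2 CPM in those of control 1 and 2, on 9 and 563 UMIs. Both Notch2 cKO libraries lay above both controls. The log2 fold change was 2.44 (SE 0.44, adjusted p = 0.01325), with 4.0025 in batch 1 and 1.78 in batch 2 when each library was given a prior of 2 counts, which shrinks the batch 1 value most. Lama3 had 27.2 and 76.6 CPM in Notch2 cKO 1 and 2, against 15.4 and 29.6 CPM in control 1 and 2. It was higher in the Notch2 cKO library of each batch, by 0.81 and 1.37, but the levels of the genotypes overlapped across batches (log2 fold change 1.06, SE 0.20, adjusted p = 0.01664). Lamb3, on chromosome 1 (193207699 to 193343878, plus strand), had 2.60 and 3.52 CPM in Notch2 cKO 1 and 2, against 7.29 and 8.17 CPM in control 1 and 2. It fell in both batches, by 1.44 and 1.21 on the log2 scale, with no overlap (log2 fold change -1.39, SE 0.26, adjusted p = 0.01696, and 0.0622 with DESeq2). Lama3 and Lamb3 thus moved in opposite directions.

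The promoters of Lama2 and Lamb3 are shown because both genes changed where a Notch receptor was deleted and Notch acts through the DNA-binding protein RBPJ, whose core motif is TGGGAA. RefSeq promoter windows (build GRCm38.p6, 250 bases before to 50 after a transcript start) were found for 23 of the 37 genes. None was found for Lama3, which also changed in T-zone cells. The motif or its reverse complement TTCCCA was present in 5 of their 26 windows (19.2%), which belong to Itga2b, Lama2, Lamb1 and Lamb3, and in 25.6% of all 32851 windows. The match, in capitals, is a description and not a binding site. The windows shown lie inside the gene spans given above and not at the 5′ ends of those spans. The Lama2 window is chr10:27616893-27617192 on the minus strand, and the Lamb3 windows are chr1:193301744-193302043 and chr1:193301993-193302292 on the plus strand, each printed 5′ to 3′ in the direction of its gene.
Lama2: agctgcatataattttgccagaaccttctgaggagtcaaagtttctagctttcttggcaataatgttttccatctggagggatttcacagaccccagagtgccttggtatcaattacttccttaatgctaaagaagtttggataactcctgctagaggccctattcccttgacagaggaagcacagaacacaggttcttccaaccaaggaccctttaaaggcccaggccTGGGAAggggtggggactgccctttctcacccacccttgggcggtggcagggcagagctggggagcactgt
Lamb3, upstream start: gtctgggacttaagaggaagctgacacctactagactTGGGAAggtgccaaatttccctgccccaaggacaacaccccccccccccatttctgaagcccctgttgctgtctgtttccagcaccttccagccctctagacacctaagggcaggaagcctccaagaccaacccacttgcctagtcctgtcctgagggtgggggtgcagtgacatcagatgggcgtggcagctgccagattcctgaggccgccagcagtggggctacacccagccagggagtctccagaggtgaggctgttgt
Lamb3, downstream start: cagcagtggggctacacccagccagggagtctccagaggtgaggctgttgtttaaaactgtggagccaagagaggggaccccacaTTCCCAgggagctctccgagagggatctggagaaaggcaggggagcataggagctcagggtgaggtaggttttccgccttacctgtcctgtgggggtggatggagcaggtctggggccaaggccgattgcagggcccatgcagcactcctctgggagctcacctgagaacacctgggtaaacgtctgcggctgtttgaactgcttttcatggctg

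The rest of the integrin and laminin genes missed the threshold in T-zone cells. Itga9 came nearest, with 75.7 and 131 CPM in Notch2 cKO 1 and 2, against 40.4 and 80.1 CPM in control 1 and 2 (log2 fold change 0.76, SE 0.20, adjusted p = 0.072, and 0.033 when library sizes alone were used). Itgav had 96.6 and 147 against 75.2 and 97.9 CPM (log2 fold change 0.42, adjusted p = 0.366). Itgb1 had 354 and 345 CPM in Notch2 cKO 1 and 2, against 329 and 379 CPM in control 1 and 2, and the genotypes overlapped. Itga1 had 436 and 407 against 592 and 545 CPM, lower in both Notch2 cKO libraries but not past the test (log2 fold change -0.48, adjusted p = 0.450). Itga6 showed the same order, at 22.5 and 26.0 against 39.3 and 31.9 CPM (log2 fold change -0.60, adjusted p = 0.154).

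**Figure D3:**
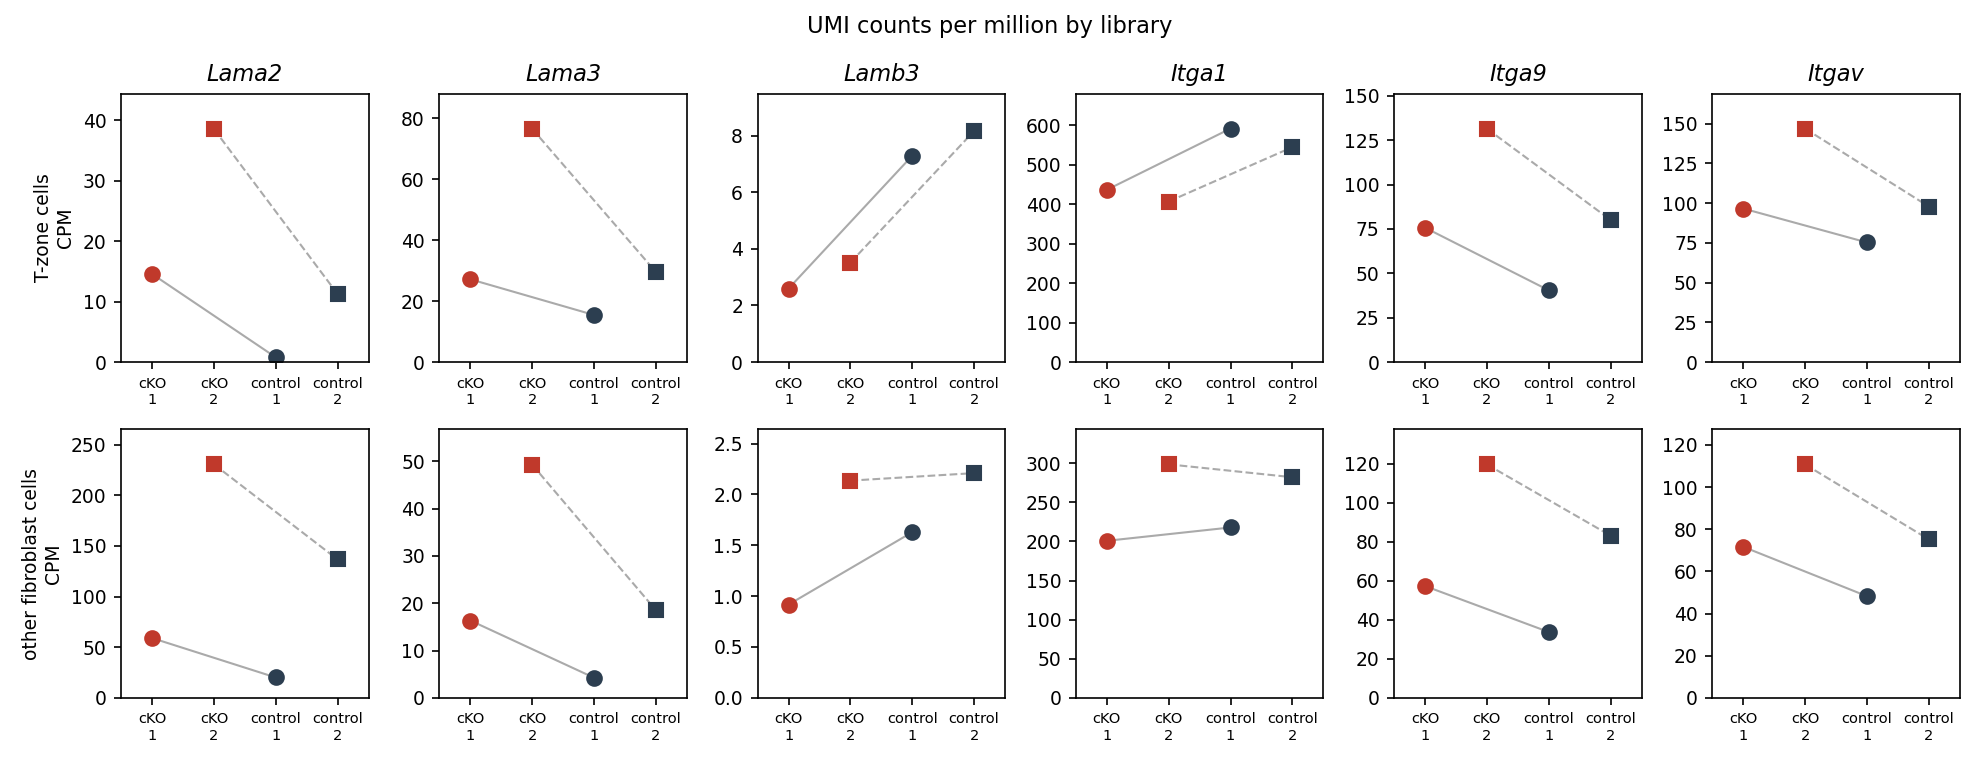
Level in CPM of 6 integrin and laminin genes in T-zone cells and in other fibroblast-like cells, 1 point per library, with the Notch2 cKO libraries left of the controls and grey lines joining the libraries of a batch. Lama2 in T-zone cells lies at 14.6 and 38.6 CPM in Notch2 cKO 1 and 2, above 0.772 and 11.2 CPM in control 1 and 2.

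Other members that were followed in every library stayed within 1 log2 unit in T-zone cells. Lama4 had 77.4 and 128 CPM in Notch2 cKO 1 and 2, against 113 and 134 CPM in control 1 and 2. Lama5 had 47.4 and 29.9 against 29.8 and 31.9 CPM, Lamb1 had 107 and 95.7 against 113 and 102 CPM, and Lamb2 had 80.2 and 54.2 against 75.9 and 67.1 CPM. Lamc1 had 115 and 102 CPM in Notch2 cKO 1 and 2, against 117 and 147 CPM in control 1 and 2. Itga7 had 0.697 and 1.26 against 1.12 and 2.42 CPM, and Itga8 had 2.03 and 3.22 against 2.06 and 3.47 CPM. All of these had adjusted p-values above 0.3, with SEs of 0.20 to 0.42 on the log2 scale, so that smaller changes could not be detected here.

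Markers of other cells were counted in the same T-zone sums. The 6 adventitial markers summed to 109 and 101 CPM in Notch2 cKO 1 and 2, against 51.0 and 60.1 CPM in control 1 and 2, with all 6 detected in each library. The 6 Schwann markers summed to 1.77 and 3.09 against 2.49 and 3.25 CPM, and the 4 pericyte markers to 725 and 817 against 1093 and 1049 CPM. The 12 leukocyte markers summed to 13.2 and 27.6 against 9.95 and 17.3 CPM. Adventitial-like and Schwann-like cells had high Lama2 levels, as given above, and the part of these markers in the Lama2 difference was not tested.

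Taking all fibroblast-like cells together, 34 genes were tested and only Lama3 was called (1.44% of all genes rose and 0.889% fell, 2.33% in all). It lies on chromosome 18 (12333819 to 12583013, plus strand, mm10). It had 22.5 and 65.2 CPM in Notch2 cKO 1 and 2, against 10.6 and 22.9 CPM in control 1 and 2, so that the genotypes overlapped by a narrow margin and were ordered within each batch. The log2 fold change was 1.25 (SE 0.20, adjusted p = 0.01264), and ran from 0.45 to 1.84 with 1 library left out. Lama2 had 32.1 and 97.1 against 8.11 and 71.1 CPM (log2 fold change 1.12, adjusted p = 0.163), and Lama1 had 1.59 and 9.18 against 1.16 and 2.81 CPM (1.16, adjusted p = 0.199). In other fibroblast-like cells Lama3 was again the only gene called of 32 tested, where 0.558% of all genes rose and 0.216% fell, 0.774% in all. It had 16.3 and 49.3 CPM in Notch2 cKO 1 and 2, against 4.24 and 18.5 CPM in control 1 and 2 (log2 fold change 1.51, SE 0.24, adjusted p = 0.03124), and the fold change ran from 0.53 to 2.74 with 1 library left out. Lama2 in those cells had 59.0 and 231 against 20.0 and 137 CPM (log2 fold change 1.04, adjusted p = 0.142).

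In the smaller fibroblast-like classes no integrin or laminin gene was called by edgeR or by DESeq2. Of 19 genes tested in marginal reticular-like cells, 2 had an unadjusted edgeR p under 0.05, both higher, as did 6.48% of all genes in either direction. Past the adjusted test were 1.02% of all genes, 0.492% higher and 0.532% lower. Of 16 in adventitial-like cells 1 was higher and 1 lower at an unadjusted p under 0.05, as were 4.76% of all genes in either direction, and 0.113% of all genes were called, all of them lower. Of 20 in Inmt Car3-gated cells 2 were higher and 1 lower at that level, as were 6.44% of all genes in either direction, and 0.359% of all genes were called, 0.254% higher and 0.105% lower. Lama3 in marginal reticular-like cells had 13.0 and 46.8 CPM in Notch2 cKO 1 and 2, against 0 and 18.0 CPM in control 1 and 2 (log2 fold change 1.31, adjusted p = 0.0869). Lama2 in Inmt Car3-gated cells had 15.9 and 125 against 1.14 and 46.3 CPM (1.58, adjusted p = 0.0840). Itga1 in adventitial-like cells had 38.2 and 11.6 against 67.9 and 53.7 CPM (-1.52, adjusted p = 0.147). In adventitial-like cells, where Lama2 was high, it had 178 and 529 CPM in Notch2 cKO 1 and 2, against 167 and 539 CPM in control 1 and 2, a difference of -0.02 (log2, SE 0.31).

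**Figure D4:**
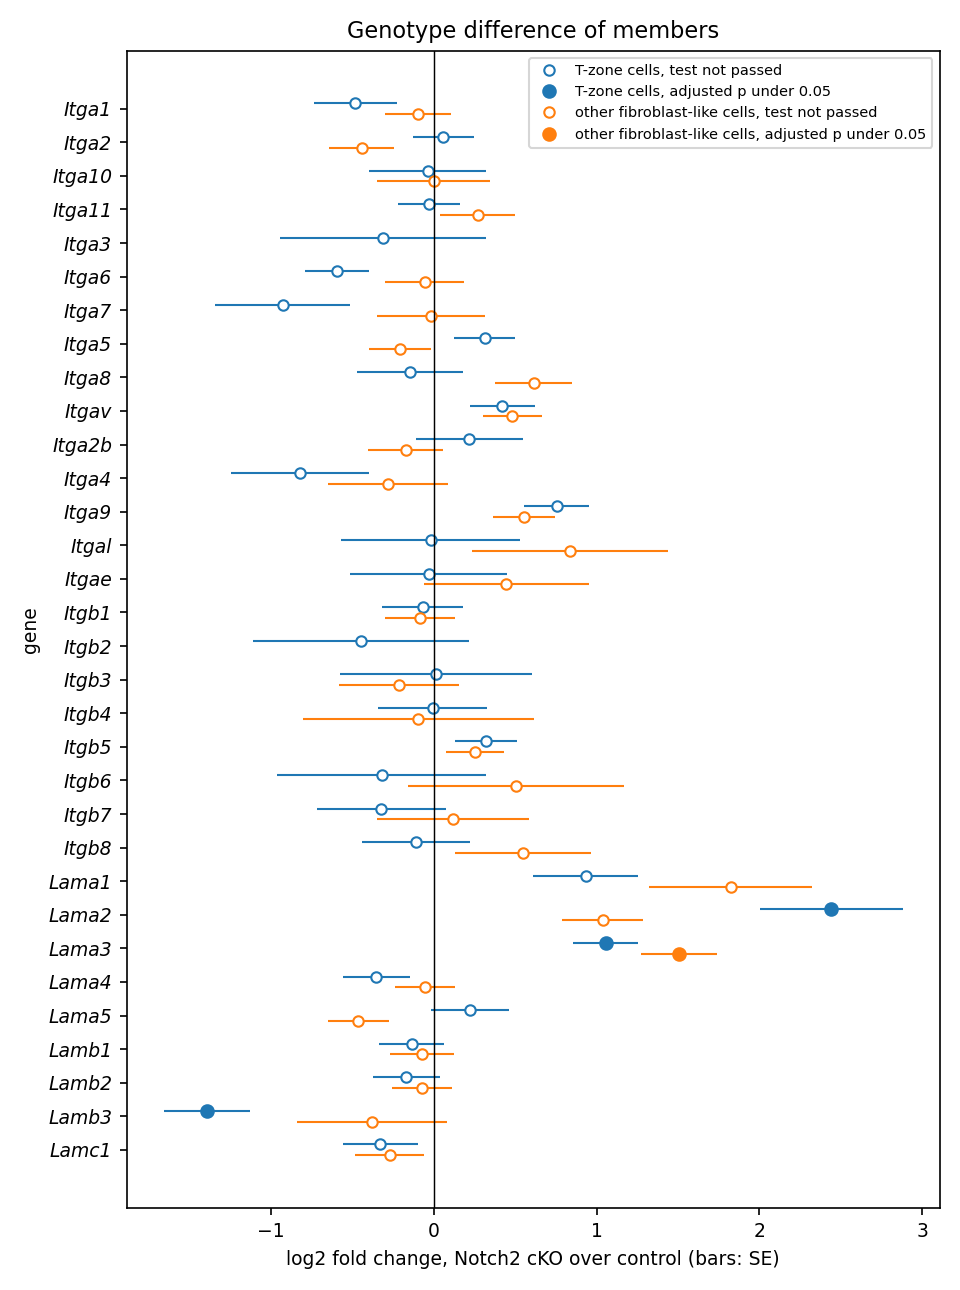
Log2 fold change, Notch2 cKO over control, with its SE, for 32 integrin and laminin genes tested in T-zone cells, with the values of other fibroblast-like cells beside them where tested. Filled points passed the test: Lama3 in T-zone cells at 1.06 and in other fibroblast-like cells at 1.51, and Lama2 at 2.44 and Lamb3 at -1.39 in T-zone cells.

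Whether the genotype effect differed between T-zone cells and all other fibroblast-like cells was tested as an interaction over 33 genes. The fold change of 2 genes was higher in T-zone cells, where 1.41% of all genes were called higher and 1.54% lower, 2.95% in all. For Lama2 the fold change was larger in T-zone cells by 1.27 (log2, SE 0.18, adjusted p = 0.00926). Levels in all other fibroblast-like cells were 63.9 and 208 CPM in Notch2 cKO 1 and 2, against 18.5 and 127 CPM in control 1 and 2. Itga2 differed by 0.56 (SE 0.11, adjusted p = 0.0416), with 20.5 and 37.9 against 20.8 and 32.2 CPM in T-zone cells and 14.2 and 30.2 against 21.8 and 35.8 CPM in the others. Itga2 was not called in T-zone cells taken alone. For Lama3 the difference was -0.19 (SE 0.19, adjusted p = 0.791) and for Lamb3 -1.26 (SE 0.27, adjusted p = 0.0521).

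Ccl19 was lower in T-zone cells of Notch2 cKO 1 and 2, at 1291 and 2456 CPM, against 5389 and 5498 CPM in control 1 and 2, and it was 1 of the gate's 5 markers. The fibroblast-like cells were therefore also split into 5 ranges of Ccl21a alone. Lama2 was higher in the Notch2 cKO library than in the control of the same batch in all 5 ranges. Below 5 Ccl21a UMIs per 10000 it had 98.8 and 304 CPM in Notch2 cKO 1 and 2, against 36.1 and 188 CPM in control 1 and 2, and from 160 per 10000 it had 10.3 and 27.9 against 0 and 4.46 CPM. It was thus lower at high Ccl21a in all 4 libraries. Lama3 was likewise higher in Notch2 cKO within each batch in every range, with 27.4 and 65.5 against 15.997 and 29.7 CPM at the top. Lamb3 was lower in Notch2 cKO within each batch in the upper 2 ranges, at 3.30 and 3.27 against 6.86 and 9.61 CPM in the highest, but not in the lowest. Along the same axis Itga8 was lower at high Ccl21a in all libraries: in the highest range it had 1.16 and 2.07 CPM in Notch2 cKO 1 and 2, against 0.527 and 1.83 CPM in control 1 and 2, and in the lowest range 26.9 and 46.6 against 15.5 and 27.2 CPM. The values are descriptions, and the split was on a gene measured in the same cells.

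**Figure D5:**
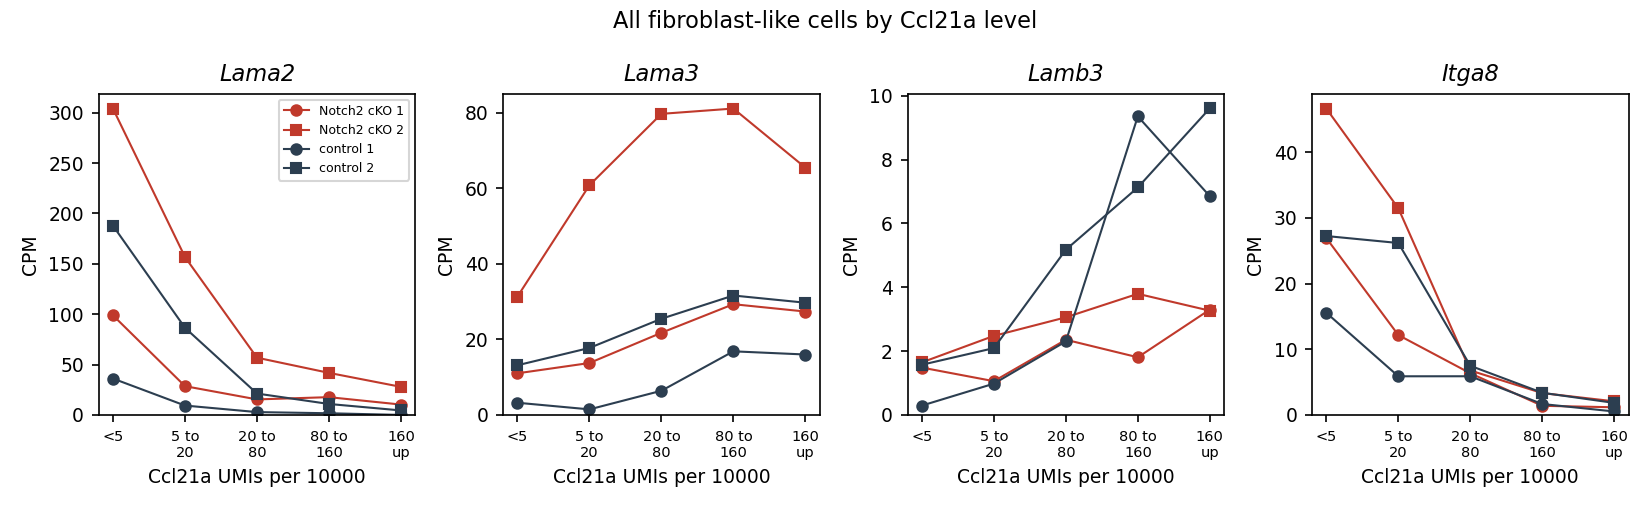
Level in CPM of Lama2, Lama3, Lamb3 and Itga8 in all fibroblast-like cells split by Ccl21a UMIs per 10000 UMIs, from under 5 to 160 and more, 1 line per library. Both Notch2 cKO lines of Lama2 lie above the control line of their batch in all 5 ranges, and Itga8 falls below 2.1 CPM in the highest range in every library.

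Partners of these receptors were examined in a list of 35 genes for basement membrane proteins, integrin ligands and cytoplasmic adaptors. In T-zone cells 34 were tested, none rose and 4 fell, and the unadjusted edgeR p was under 0.05 for 2 higher and 6 lower genes. Of all genes, 2.41% rose and 2.14% fell, and 6.73% were higher and 8.22% lower at that unadjusted level. Madcam1, a ligand of the alpha 4 beta 7 integrin, had 8.42 and 5.61 CPM in Notch2 cKO 1 and 2, against 42.6 and 41.8 CPM in control 1 and 2 (log2 fold change -2.69, adjusted p = 0.000453). Vtn, which encodes vitronectin, had 222 and 238 against 790 and 681 CPM (-1.72, adjusted p = 0.00546). Postn, which encodes periostin, had 35.3 and 34.1 against 70.3 and 119 CPM (-1.46, adjusted p = 0.0101). Ntn4, which encodes a netrin that binds laminin, had 1.08 and 1.32 against 3.17 and 5.21 CPM (-1.88, adjusted p = 0.0155, and 0.0872 with DESeq2). All 4 lay lower in both Notch2 cKO libraries than in both controls. They were named because they were called lower in these same libraries, so this adds no separate support. The share of all genes that separate in this way is not given here. In all fibroblast-like cells Madcam1 and Vtn fell and none of the 35 rose, and the Vtn call was lost with library sizes alone (log2 fold change -1.59, adjusted p = 0.0629). Vtn also fell in other fibroblast-like, Inmt Car3-gated, marginal reticular-like and adventitial-like cells, by 1.94, 1.94, 2.03 and 2.14 on the log2 scale. No cytoplasmic partner was called in T-zone cells or in all fibroblast-like cells by edgeR, where 2 and 1 of 13 had an unadjusted p under 0.05, all of them higher, as had 6.73% and 5.6% of all genes in that direction. The interaction called Madcam1, Ntn4 and Postn lower and Tnc, which encodes tenascin-C, higher in T-zone cells than in the others (0.58, adjusted p = 0.0141).

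Mural and Schwann-like cells were too few in batch 1 for a genotype test, so batch 2 gave 1 library per genotype and values only, with exact 95% Poisson intervals that cover counting error alone. Itga6 in pericyte-like cells had 151 CPM (134 to 170) in Notch2 cKO 2, against 80.4 CPM (69.7 to 92.3) in control 2. Itga7 there had 63.9 (53.0 to 76.3) against 102 CPM (89.7 to 115). Lama2 had 725 CPM (606 to 862) in Schwann-like cells of Notch2 cKO 2, against 343 CPM (269 to 430) in those of control 2, and 160 (124 to 204) against 45.2 CPM (32.9 to 60.4) in smooth muscle-like cells. Lama2 intervals did not overlap in these classes, nor in pericyte-like cells, where the levels were 263 (241 to 287) and 199 CPM (182 to 217). The follicular dendritic-like gate held 5 cells in Notch2 cKO 2 and 15 in control 2, with 2 and 72 UMIs of Itgav. Lama3 in that gate had 249 CPM (124 to 446) in Notch2 cKO 2 and 146 CPM (89.2 to 226) in control 2. These values rested on 11 and 20 UMIs and lay above the Lama3 means of the classes tested.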

How the data were processed

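Per the labels, the libraries were made with 10x 3′ version 3.1 chemistry, and the authors deposited raw UMI counts per gene and cell. Cell Ranger 5.0.1 and mm10 are named in the submitters' processing notes. The file headers give version 5.0.1 for the batch 1 files and version 7.1.0 for those of batch 2, so batch and software version cannot be told apart, and whether intronic reads were counted is unknown here.

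A cell was kept if it had 500 or more genes, 1000 or more UMIs and no more than 10% of its UMIs from mitochondrial genes, and kept cells were gated on markers per 10000 UMIs. Cells passing gates of 2 lineages were left out, and no doublet caller was run. The mural gates were revised after gate-marker levels had been seen. Counts were summed per library and class (at least 20 cells) and tested with edgeR 4.0.16 (TMM, filterByExpr, quasi-likelihood, Benjamini-Hochberg over all genes tested, 0.05), with DESeq2 1.42.0 as an alternative, in R 4.3.3. Sums were made in Python 3.11.15. The genotype fit had batch as a term, which the labels state. Deviations of same-batch libraries from their group means correlated at 0.419 to 0.829 across genes. The class fit had the library as a block and 16 residual degrees of freedom. The fits were tested on simulated data.

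Named genes were 13 members shown in every library, every member called between genotypes, and up to 4 members per direction and class with the largest log2 difference among called genes averaging at least 20 CPM on the higher side. Up to 4 genes of the list of 35 were named per direction. The members and lists were chosen with earlier results of these data known. The values of 1 member are not reported here.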

Additional observations from a re-analysis of the deposited data

Results flagged for a closer look

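The genotype effect on Lama2 differed between T-zone cells and all other fibroblast-like cells. The log2 fold change, Notch2 cKO over control, was larger by 1.2663 in T-zone cells in the test of the difference itself (edgeR, adjusted p = 0.00926). With a prior of 2 counts per library it was 4.0025 in batch 1 and 1.78 in batch 2 of the T-zone cells, and Lama2 in T-zone cells of control 1 rested on 9 UMIs. The genotype effect on Itga2 differed in the same test by 0.5587 (adjusted p = 0.0416), although Itga2 was not called in T-zone cells taken alone.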

How the results depend on the processing

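With 2 libraries per genotype and 1 residual degree of freedom, the genotype calls depended on the batch term. With no replicate block, the members called numbered 0 in T-zone cells (3 with it), 0 in all fibroblast-like cells (1), 0 in other fibroblast-like cells (1) and 0 in the interaction (2). Of all genes, 0 were called without the block in these 3 sets of cells (731, 412 and 118 with it). The interaction called 90 of all genes without it and 490 with it, so the loss was not particular to the members. Leaving out any 1 library gave 0 to 0 calls in each of these 3 sets of cells, and the interaction was not refitted without single libraries. In T-zone cells without the block, Lama2 was at 2.02, Lama3 at 1.12 and Lamb3 at -1.40 (log2). The interaction called 1 member with DESeq2, 4 with DESeq2 size factors and 8 with Ccl21a at 50 per 10000. It called 5 with a gate without Ccl19, 7 with no filter on low counts and 8 with a stricter cell filter. In that order, 177, 527, 989, 714, 889 and 844 of all genes were called, against 490 in the main fit. All fibroblast-like cells had 0 calls with library sizes alone, 4 with no filter and 0 with stricter cells. Of all genes, 127, 942 and 179 were called there, against 412 in the main fit. Other fibroblast-like cells had 2 with the highest-UMI cells left out, 0 with library sizes alone and 3 with no filter. Calls over all genes numbered 226, 45 and 552 there, against 118 in the main fit. Inmt Car3-gated cells had 1 with each of those 3 settings, and marginal reticular-like cells 1 with library sizes alone, against 0. Calls over all genes numbered 70, 78 and 174 in Inmt Car3-gated cells, against 41 in the main fit. In marginal reticular-like cells they numbered 105 with library sizes alone, against 102. Smooth muscle-like calls ran from 11 to 19 and pericyte-like calls from 8 to 17 when 1 library was left out, the lowest without control 2 in both. Calls over all genes numbered 3096 in smooth muscle-like and 3984 in pericyte-like cells in the main fit. Those with 1 library left out are not given here. The lower member counts without control 2 are therefore not shown to be particular to the members. The causes were not tested.

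In all fibroblast-like cells, with 1 library left out, the log2 fold change ran from -1.08 to 1.09 for Itga5, -1.18 to 0.71 for Itga7, -0.35 to 0.95 for Itga8, -0.10 to 0.0018 for Itgb1, -0.25 to 2.78 for Lama2, -0.41 to 0.23 for Lama5 and -0.27 to 0.18 for Lamb1. In T-zone cells it ran from -0.87 to 1.45 for Itga5, -0.45 to 0.20 for Itga8, -0.17 to 0.61 for Lama5 and -0.53 to 0.16 for Lamb2. Other sign changes were 0.014 for Itgb1 with library sizes alone, 0.010 and 0.021 for Lamb1 with the highest-UMI cells left out and with library sizes alone (all fibroblast-like cells), and 0.18 for Itga8 in T-zone cells with the highest-UMI cells left out. In T-zone cells Lama3 ran from 0.27 to 1.64, Lama2 from 1.18 to 4.93 and Lamb3 from -1.58 to -1.27 with 1 library left out. The Itga2 interaction was also lost with Ccl21a at 50 (adjusted p = 0.0704), with library sizes alone (0.0501) and with DESeq2. Library sizes alone moved the median of all genes by 0.117 in Inmt Car3-gated and 0.105 in other fibroblast-like cells.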
